A study of Drosophila melanogaster with 2 samples.

Results

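The ecdysone receptor gene EcR, its partner usp and 6 ecdysone response or nuclear receptor genes (Eip75B, Eip74EF, ftz-f1, Hr4, Hr38 and Hr39) were examined in chromatin immunoprecipitation and sequencing (ChIP-seq) data for the circadian transcription factor Clock (Clk). Every deposited region whose summit, the base of highest enrichment, lay in one of these 8 genes or within 1 kb of it was taken. Of 13968 protein-coding genes on the main chromosome arms these are 8. They held 21 of the 2464 regions that the authors kept at a threshold of the irreproducible discovery rate (IDR), called reproducible here. The chromatin came from whole adult male Drosophila melanogaster of a transgenic line that stably expressed Clk with a C-terminal GFP tag, called eGFP elsewhere in the labels. It was fragmented by sonication. The labels describe precipitation through the GFP tag, although their antibody field names Clk. They give neither the promoter driving the fusion protein nor the time of day at collection, and they list the age of the flies as unknown. The series held 1 group of 2 biological replicates and no second genotype, treatment or time, so no difference between conditions could be tested, and all values below describe this group.

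Ecdysone is the steroid hormone of insects. Its active form binds a heterodimer of the nuclear receptors EcR and Ultraspiracle (Usp), which then activates a first tier of transcription factor genes. That tier includes Eip75B, which encodes a heme-binding nuclear receptor, and Eip74EF, which encodes a factor with an ETS DNA-binding domain. Ftz-f1 and Hr4 are nuclear receptors whose genes are induced later in the larval and prepupal cascade, Hr38 is a nuclear receptor that can also pair with Usp, and Hr39 is a relative of Ftz-f1. The hormone is best known for timing molts and metamorphosis, and in adult flies the pathway acts in reproduction, sleep and memory. The Eip75B protein has also been linked to the fly's circadian clock. Clk pairs with Cycle and binds E-boxes, DNA elements whose best known form is CACGTG.

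The DNA under the peaks is shown first, for the strongest reproducible peak of ftz-f1, Eip74EF and Hr4, for the strongest of Eip75B outside an untranslated region, and for each further peak of these genes that held CACGTG or the core nuclear receptor element AGGTCA within 50 bp of its summit. Each sequence is the 101 bases centred on the summit, on the plus strand 5′ to 3′, from the RefSeq Release 6 genome (build dm6). Capitals mark 4 motifs. They are CACGTG and AGGTCA, CAAGGTCA (the extended element bound by Ftz-f1 and Hr39, which contains AGGTCA) and GAGAG, which is bound by GAGA factor and reads CTCTC on the other strand.
ftz-f1 peak 1, chr3L:18756587-18756687: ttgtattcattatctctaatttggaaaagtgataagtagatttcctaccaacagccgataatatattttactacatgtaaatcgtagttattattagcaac
ftz-f1 peak 2, chr3L:18759355-18759455: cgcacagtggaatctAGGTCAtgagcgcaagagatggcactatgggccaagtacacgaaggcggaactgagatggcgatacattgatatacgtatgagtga
Eip74EF peak 1, chr3L:17590854-17590954: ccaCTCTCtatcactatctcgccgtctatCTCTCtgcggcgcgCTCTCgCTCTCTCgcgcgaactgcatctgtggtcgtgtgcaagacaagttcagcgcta
Eip74EF peak 2, chr3L:17612370-17612470: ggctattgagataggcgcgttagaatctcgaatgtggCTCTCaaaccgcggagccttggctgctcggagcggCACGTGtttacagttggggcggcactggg
Eip75B peak 2, chr3L:17956511-17956611: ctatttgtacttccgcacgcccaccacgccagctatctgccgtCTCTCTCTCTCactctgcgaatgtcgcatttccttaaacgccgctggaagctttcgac
Eip75B peak 5, chr3L:17950546-17950646: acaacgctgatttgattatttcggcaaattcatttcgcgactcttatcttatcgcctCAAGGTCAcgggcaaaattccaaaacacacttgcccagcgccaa
Hr4 peak 1, chrX:1963887-1963987: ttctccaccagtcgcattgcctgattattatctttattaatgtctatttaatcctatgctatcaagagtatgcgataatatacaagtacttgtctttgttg

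A perfect CACGTG stood in the window of Eip74EF peak 2, which was printed for that reason. Its centre was 24.5 bp to the right of the summit, at chr3L:17612442-17612447. Over all 21 peaks of the 8 genes this was the only CACGTG within 50 bp of a summit, against 33 (1.34%) of the 2464 peaks of the list and 3.27% of the 245 peaks at other genes over 50 kb. Farther out, Eip75B peak 4 held one at chr3L:18063420-18063425, 174.5 bp from the summit, and ftz-f1 peak 2 held one at chr3L:18759337-18759342, 65.5 bp to the left. Over whole regions the count was thus 3 of 21, against 6.09% of the list.

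AGGTCA, read on both strands, lay in 2 of 21 summit windows, against 1.79% of those of the list and 1.22% at other genes over 50 kb. Over whole regions it was in 5 of 21, against 7.06% of the list. At Eip75B peak 5 it was part of CAAGGTCA, at chr3L:17950603-17950610, whose centre was 10.5 bp from the summit. The other was at ftz-f1 peak 2 (chr3L:18759370-18759375), so that this region held a receptor element and an E-box. CAAGGTCA occurred in 0.203% of the windows of the list. GAGAG was found in 5 of 21 windows, all of Eip75B or Eip74EF, against 14.3% of the list and 18.4% at other genes over 50 kb, and in 14 of 21 whole regions, against 46.8% of the list. TATCGATA, the element bound by DREF, was in none of the 21, against 2.23%. These are matches of letters in short windows, and the counts of CACGTG, of AGGTCA and of GAGAG change with the window.

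**Figure D1:**
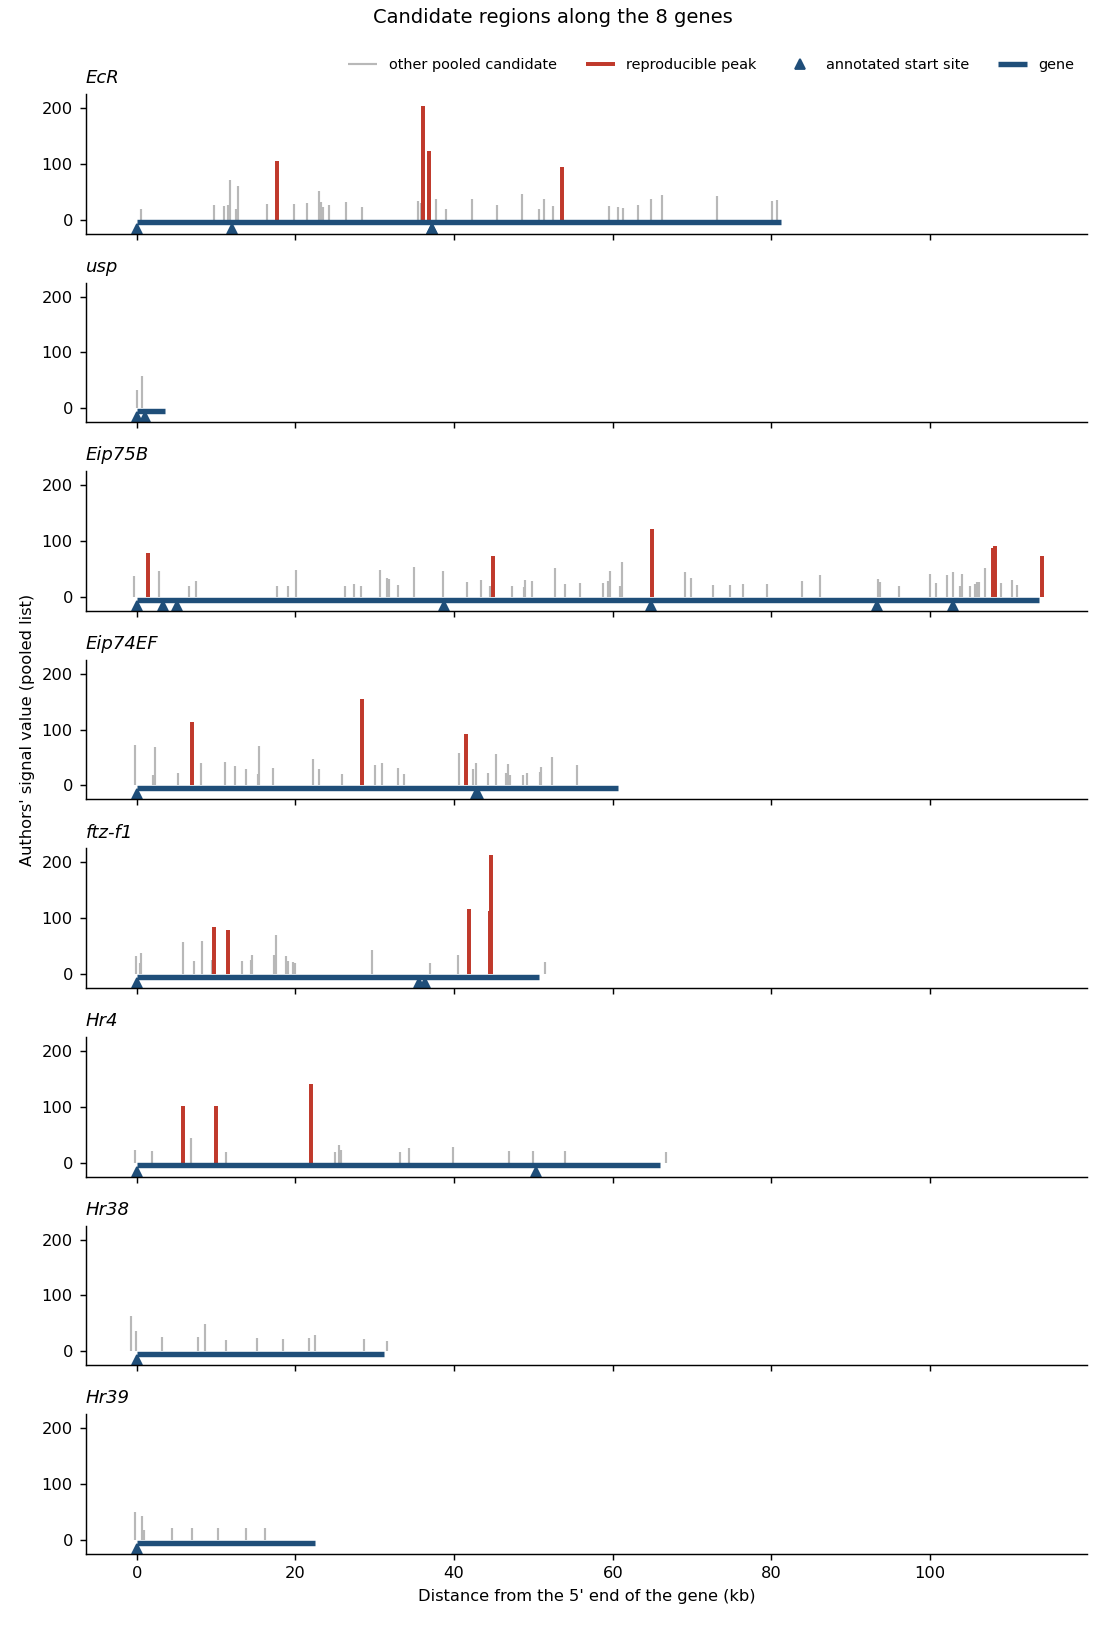
Regions along the 8 genes, with distance from the 5′ end of each gene on the x axis (kb) and the authors' signal in the pooled list as the height of each line. Red lines are the 21 reproducible peaks, grey lines the other pooled candidates, blue bars the genes and triangles their annotated start sites. Peaks of EcR, Eip75B, Eip74EF, ftz-f1 and Hr4 are spread over 16.2 to 113 kb, whereas usp, Hr38 and Hr39 hold candidates only.

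Reproducible peaks were found in 5 of the 8 genes (62.5%, exact 95% binomial interval 24.5 to 91.5%), namely EcR, Eip75B, Eip74EF, ftz-f1 and Hr4. By the same rule 20% of all protein-coding genes (2795 of 13968) had a peak. Eip75B held 6, ftz-f1 held 5, EcR held 4, and Eip74EF and Hr4 held 3 each. The receptor partner usp and the nuclear receptor genes Hr38 and Hr39 had none, although all 8 genes held weaker candidate regions. Pooled candidates come from a longer list that is labelled as peaks and background, so a weak one need not mark binding. The intervals given here cover counting error over genes or peaks only, and neighbouring peaks share a gene. They are no test against the share of all genes, because the 8 genes were chosen with earlier results of these data known.

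Peaks at these genes were of middling strength. The signal is the value that the authors' peak caller gave each region of the pooled list. It ran from 72.5 to 214 over the 21 peaks with a median of 102, against 72.4 to 1874 with a median of 109 over the list. Of the 21, 9 were above the median of the list, and the median rank of all 21 was 1377 of 2464. Nearly all had the same width, 420 bp in 20 of 21, so the width of a region says little about how far binding extended.

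EcR (FBgn0000546), the hormone receptor itself, spans 81.2 kb on the minus strand of chr2R:6087873-6169087 and has 6 annotated transcripts from 4 start sites. Its strongest peak, chr2R:6132960-6133143, had a pooled signal of 203 (rank 400), with 116 in replicate 1 and 88.4 in replicate 2. It lay in an intron, 1148 bp upstream of the start shared by EcR-RB and EcR-RC. The second peak, chr2R:6132044-6132463, was 816 bp closer to that start, at 332 bp, and had a signal of 122 (64.3 in replicate 1 and 52.4 in replicate 2). Both peaks thus lay just upstream of an internal promoter of EcR, and the second was also 413 bp from the start of EcR-RG.

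The other EcR peaks were farther from any start of the gene. The third, chr2R:6151157-6151576, lay 5762 bp into the transcripts EcR-RD and EcR-RE and had a signal of 105 (87.6 in replicate 1 and 32.4 in replicate 2). A tRNA gene, tRNA:Asn-GTT-1-1, starts 1309 bp from it. The fourth, chr2R:6115234-6115653, was 16397 bp from its nearest start and had a signal of 93.8 (49.9 in replicate 1 and 42.9 in replicate 2). All 4 had a candidate in each replicate, and among the strongest 2464 regions of each replicate EcR held 5 in replicate 1 and 5 in replicate 2.

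The gene of the partner receptor, usp (FBgn0003964), is short, 3.51 kb on the minus strand of chrX:2038798-2042311, with 2 transcripts. It held 2 pooled candidates, each close to a promoter. The stronger had a signal of 56.8 (rank 3634) and lay in an intron, 404 bp upstream of a usp start and 152 bp from the start of the neighbouring gene CG4313. It had a signal of 52.0 in replicate 1, at rank 2101 and so within that replicate's strongest 2464, whereas replicate 2 had no candidate within 150 bp of it. The weaker lay 13 bp upstream of the other usp start, with a pooled signal of 32.1, 16.1 in replicate 1 and 15.8 in replicate 2, and was equally close to a start of Actn, the alpha-actinin gene. Replicate 1 alone would therefore place a strong region at usp and replicate 2 alone would not.

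Eip75B (FBgn0000568), an early response gene, is the longest of the 8 at 114 kb (minus strand, chr3L:17950953-18064696), with 7 transcripts from 7 start sites. It also had the most peaks in the pooled list, 6, though not in either replicate alone. The strongest, chr3L:17999576-17999995, had a signal of 121 (rank 1043), with 71.6 in replicate 1 and 49.3 in replicate 2. Its summit was in the 5′ UTR of Eip75B-RC, 35 bp from that start, and no other of the 21 summits was as close to a start site.

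Eip75B peaks 2 and 3 formed a pair with summits 244 bp apart, at chr3L:17956351-17956770 and chr3L:17956595-17957014, in an intron about 5 kb downstream of the Eip75B-RD start (5253 and 5009 bp). Peak 2 had a pooled signal of 90.3 and 44.2 in replicate 1, and no candidate lay within 150 bp of it in replicate 2. Peak 3 had a pooled signal of 87.2, with 34.9 in replicate 1 and 42.5 in replicate 2. Replicate 1 thus had a candidate at both summits of the pair and replicate 2 at the summit of peak 3 only.

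The 3 remaining Eip75B peaks were near the limit of the list. Peak 4, chr3L:18063038-18063457, was 1448 bp into Eip75B-RF with a signal of 78.7 (52.6 in replicate 1 and 25.5 in replicate 2). Peak 5, chr3L:17950386-17950805, lay 357 bp past the 3′ end of the gene with a signal of 73.6 (57.9 in replicate 1 and 38.2 in replicate 2). The start nearest to peak 5 was that of lncRNA:CR45393, at 2896 bp, against 11218 bp for Eip75B. Peak 6, chr3L:18019598-18020017, was 6224 bp into Eip75B-RG with a signal of 72.5 (54.3 in replicate 1 and 18.7 in replicate 2). From first to last, the peaks of Eip75B covered 113 kb, nearly its full length. Taking the strongest 2464 regions of a single replicate gave 4 at Eip75B in replicate 1, where EcR and ftz-f1 had 5 each, and 3 in replicate 2, where Eip74EF had 6.

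Eip74EF (FBgn0000567), the ETS factor gene, spans 60.7 kb on the minus strand of chr3L:17558672-17619325 and has 5 transcripts from 3 start sites. Its 3 peaks were all intronic and at least 13131 bp apart. The strongest, chr3L:17590694-17591113, had a signal of 154 (rank 652), with 86.4 in replicate 1 and 68.1 in replicate 2, and was 14278 bp upstream of the Eip74EF-RB start. The second, which carries the E-box shown above, chr3L:17612210-17612629, had a signal of 113, with 51.0 in replicate 1 and 65.3 in replicate 2, and lay 6905 bp into Eip74EF-RA, -RC and -RE.

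On a scale centred on the median ratio over the list, this second Eip74EF peak leaned most toward replicate 2 of all 19 peaks seen in both replicates, by −1.17 (log2 replicate 1 over replicate 2). The third, chr3L:17577563-17577982, was 1147 bp upstream of the Eip74EF-RB start and had a signal of 92.1 (66.0 in replicate 1 and 27.4 in replicate 2), a centred ratio of 0.45. The gene had 4 regions among the strongest 2464 of replicate 1 and 6 among those of replicate 2, against 3 in the pooled list. With the limit at 5 kb instead of 1 kb, the gene had 5 reproducible peaks. Among those added was a peak 2252 bp upstream of the Eip74EF-RA start, with a signal of 131. Counting a peak by any base of its region within 1 kb gave 4.

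The nuclear receptor gene ftz-f1 (FBgn0001078) spans 50.7 kb on the minus strand of chr3L:18750607-18801309, with 4 transcripts from 3 start sites. It held the strongest of the 21 peaks and 0.949 peaks per 10 kb, the highest density of the 8 genes. Peak 1, chr3L:18756427-18756846, had a signal of 214 (rank 364), with 145 in replicate 1 and 76.4 in replicate 2. Peak 3, chr3L:18756627-18757046, had its summit 200 bp away and a signal of 113 (76.6 in replicate 1 and 48.4 in replicate 2). Peak 2, chr3L:18759195-18759614, carries the AGGTCA shown above and had a signal of 117 (72.4 in replicate 1 and 45.0 in replicate 2). These 3 peaks formed a group in introns, 5551 to 8319 bp downstream of the ftz-f1-RA start. The start nearest to them was that of lncRNA:CR45938, at 2552 bp for peak 1, 5320 bp for peak 2 and 2752 bp for peak 3.

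The other ftz-f1 peaks lay in a long intron, and both summits were also inside the noncoding RNA gene lncRNA:CR45939. Peak 5, chr3L:18789553-18789972, had a signal of 78.2 (47.3 in replicate 1 and 28.4 in replicate 2). Peak 4, chr3L:18791352-18791771, had a signal of 84.6 and 73.0 in replicate 1, and no candidate in replicate 2 within 150 bp. They were 11546 and 9747 bp into ftz-f1-RB. No peak of ftz-f1 was near a start site, and 1 of its 3 start sites had even a pooled candidate within 500 bp. When each peak was given only to the gene with the nearest start, ftz-f1 kept 2 of its 5.

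Hr4 (FBgn0264562) spans 66.0 kb on the plus strand of chrX:1941940-2007956 and has 9 transcripts from 2 start sites. Peak 1, chrX:1963727-1964146, lay 21997 bp from its nearest Hr4 start, farther than any other of the 21 peaks, and had a signal of 141 (99.6 in replicate 1 and 38.0 in replicate 2). Peak 2, chrX:1947552-1947971, was 5822 bp into the gene with a signal of 102 (74.8 in replicate 1 and 29.8 in replicate 2). Peak 3, chrX:1951678-1952097, was 9948 bp into it with a signal of 101 (67.6 in replicate 1 and 30.3 in replicate 2). All 3 were intronic and leaned toward replicate 1, with centred log2 ratios of 0.58, 0.51 and 0.34. The median of the 312 X-linked peaks of the list seen in both replicates was 0.15 (quartiles −0.18 and 0.47), and that of the 2086 on other chromosomes was −0.02 (quartiles −0.37 and 0.33). By nearest start alone, Hr4 kept 1 of its 3. The start of CR46447 was nearer to peak 1 (9457 bp) and to peak 3 (2592 bp).

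Hr38 (FBgn0014859), at 31.1 kb on the minus strand of chr2L:20683462-20714588, held 12 pooled candidates and no reproducible peak. The strongest lay 728 bp upstream of its single start site, with a pooled signal of 62.4 (rank 3116), 34.3 in replicate 1 and 26.3 in replicate 2. A further candidate stood 49 bp upstream of the start with a pooled signal of 36.2. Hr39 (FBgn0261239), at 22.4 kb on the plus strand of chr2L:21237250-21259675, held 8, and its strongest was 195 bp upstream of its single start with a pooled signal of 50.3 (rank 4431), 27.5 in replicate 1 and 24.2 in replicate 2. At both genes the strongest region thus lay upstream of the start and was seen in both replicates, below the limit of the reproducible list.

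The limit itself separated regions of nearly equal signal. Just inside it were Eip75B peaks 5 and 6, at 73.6 and 72.5. Just outside were candidates of Eip74EF at 71.8 (277 bp upstream of the start of Eip74EF-RA, -RC and -RE), of EcR at 70.8 (222 bp upstream of the start of EcR-RD and -RE) and of ftz-f1 at 70.4. These Eip74EF and EcR candidates were closer to a start of their gene than any of its reproducible peaks.

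The reproducible list held the strongest 2464 regions of the list pooled from these 2 replicates. A region thus stood in it by its pooled signal, and not every one had a candidate in both replicates. Because the same replicates made the pooled list, shared positions among its peaks are in part given by how it was made. A candidate summit within 150 bp was present in both replicates for 19 of the 21 (90.5%, exact 95% interval 69.6 to 98.8%), against 97.3% of the list. Both were among that replicate's strongest 2464 for 14 (66.7%, 43.0 to 85.4%), against 67.1% of the list. The exceptions were Eip75B peak 2 and ftz-f1 peak 4, each with a candidate in replicate 1 and none in replicate 2. Replicate 1 ranked the region higher in 9 of the 19 and replicate 2 in 10. Signals of replicate 1 were 1.76-fold those of replicate 2 in the median over the list, which is why ranks or centred ratios are used across replicates. Centred ratios ran from −1.17 to 0.72 with a median of −0.13.

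The order of the genes by their strongest region depended on the replicate. In the pooled list it was ftz-f1 (rank 364), EcR (400), Eip74EF (652), Hr4 (773), Eip75B (1043), Hr38 (3116), usp (3634) and Hr39 (4431). In replicate 1 ftz-f1 led at rank 323, before EcR at 496 and Hr4 at 681. In replicate 2 EcR led at rank 288, before ftz-f1 at 370 and Eip74EF at 454, and Hr4, at rank 1507, came after Eip75B at 892. Several neighbours in this order, such as ftz-f1 and EcR or Hr4 and Eip74EF, thus changed places between replicates. The 5 genes with a peak ranked above the other 3 in each replicate. That split is in part given beforehand, because the same replicates made the pooled list that defines it.

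**Figure D2:**
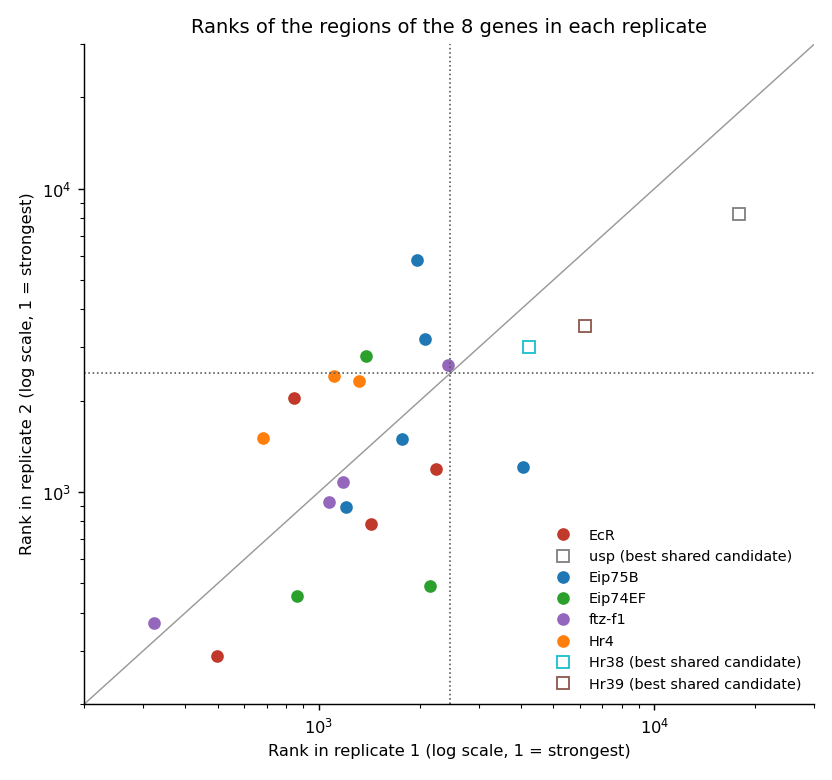
Rank of each region in replicate 1 (x axis) and replicate 2 (y axis), both on log scales with rank 1 the strongest. Filled points are the 19 reproducible peaks with a candidate in both replicates and open squares the strongest shared candidate of usp, Hr38 and Hr39. Dotted lines mark rank 2464, inside which 14 peaks lie in both replicates, and the solid line marks equal ranks.

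Few of these peaks were at start sites. A summit within 500 bp of any annotated transcript start was seen for 2 of 21 (9.52%, exact 95% interval 1.17 to 30.4%), the EcR peak at EcR-RB and the Eip75B peak at Eip75B-RC. In the list 1584 of 2464 peaks (64.3%) were at promoters. Long genes have more DNA away from starts, and among the 245 peaks at the 308 other genes over 50 kb the share was 40.4%. Of the 21 summits, 19 lay in introns, 1 in a 5′ UTR and 1 downstream of a gene. Their median distance to the nearest start of any gene was 5009 bp, against 217 bp over the list, and to the nearest start of their own gene 6224 bp. No test was made, since several peaks share a gene.

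**Figure D3:**
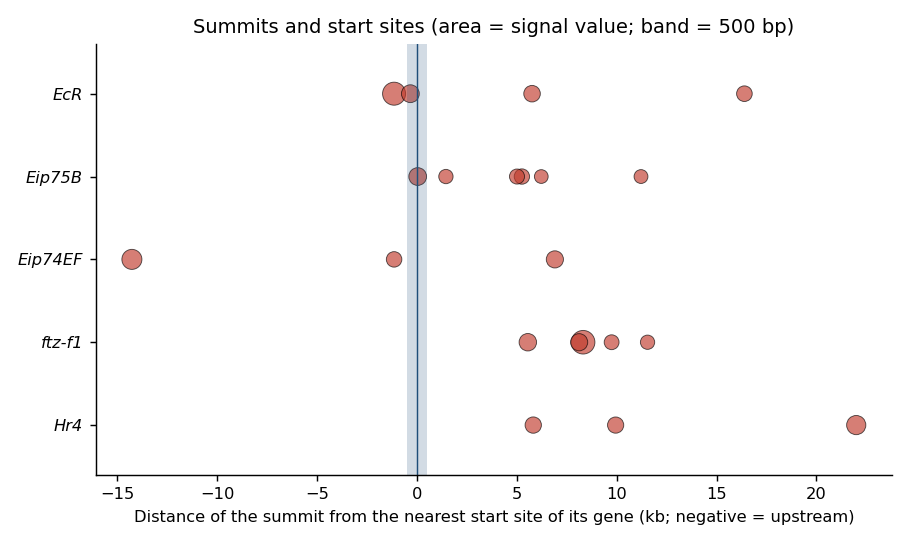
Distance from each of the 21 summits to the nearest start site of its own gene (kb, linear, negative upstream), 1 row for each of the 5 genes with a peak and the area of each point in proportion to the signal. The shaded band marks 500 bp to each side, and it holds 2 summits, 1 of EcR and 1 of Eip75B.

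Of the 23 start sites of the 8 genes, 3 (13.0%) had a reproducible peak within 500 bp, against 13.0% of the 19607 start sites of other protein-coding genes. They were those of EcR-RB with -RC, EcR-RG and Eip75B-RC, and the EcR starts share the same peak. A pooled candidate, reproducible or not, lay within 500 bp of 19 (82.6%), against 49.7% of starts of other genes and 46.9% of the 793 starts of other genes over 50 kb. At 16 of the 19 the nearest candidate was below the reproducible list. The nearest ones at the Hr4 starts had signals of only 22.4 and 21.7 (ranks 19363 and 20734). Because the pooled list is labelled as peaks and background, a candidate near a start need not mark binding. Candidates were present at 6 of 7 starts of Eip75B, 3 of 4 of EcR, all 3 of Eip74EF, both of usp and of Hr4, and the single ones of Hr38 and Hr39. At ftz-f1 it was 1 of 3. Starts were counted singly, and those of Eip74EF-RB and -RD share the same candidate.

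Weaker candidates also lay along the gene bodies, and how many of them are background is unknown. The 8 genes held 200 of the 30000 pooled candidates, 177 of those of replicate 1 and 224 of those of replicate 2. Eip74EF had 5.59 pooled candidates per 10 kb, Eip75B 5.36, ftz-f1 4.74 and EcR 4.69, then usp 3.63, Hr38 3.62, Hr39 3.28 and Hr4 2.50. The value over the chromosome arms was 2.18 per 10 kb, counted over all their DNA, intergenic DNA and the Y included. It is therefore no reference for gene bodies. Of the 200, 91 (45.5%) had a candidate within 150 bp in both replicates, against 35.6% of all pooled candidates, and 10.5% were reproducible peaks, against 8.21%. EcR had 56 candidates in replicate 2 and 38 in replicate 1, and Eip75B had 77 and 50, while Hr4 had 11 in replicate 2 and 17 in replicate 1.

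Gene length has to be set beside these counts, because a longer gene offers more places for a summit. The 5 genes with a peak are the 5 that exceed 50 kb, a class in which 38.3% of 313 genes had a peak. Hr38 and Hr39 belong to the class of 20 to 50 kb, of which 33.2% had one, and usp to that under 5 kb, of which 16.1% had one. The absence of a peak at these 3 genes is thus what most genes of their length showed. Within the class over 50 kb the median gene had 0 peaks and the upper quartile was 1. Fewer peaks than Eip75B were held by 97.4% of the class, fewer than ftz-f1 by 94.9%, fewer than EcR by 92.3%, and fewer than Eip74EF or Hr4 by 88.2%. Per 10 kb, the 5 genes had 0.549 peaks, against 0.0882 over the class.

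**Figure D4:**
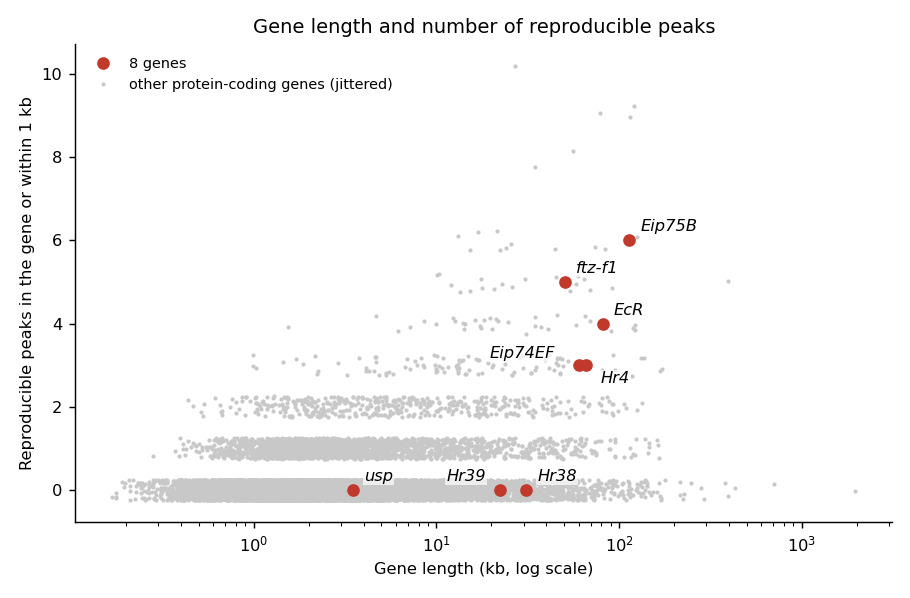
Gene length (kb, log scale) against the number of reproducible peaks in the gene or within 1 kb, with the 8 genes named and all other protein-coding genes as grey points jittered up and down. Eip75B, ftz-f1, EcR, Eip74EF and Hr4, all over 50 kb, hold 3 to 6 peaks, and usp, Hr39 and Hr38 hold 0.

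Few genes resembled Eip75B in number of peaks. In all, 12 protein-coding genes held 6 peaks, Eip75B included, and 6 held more. The 3 with 6 peaks that were nearest to it in length were CG1677 (125 kb, X), tai (83.4 kb, 2L), which encodes the ecdysone receptor coactivator Taiman, and SNF4Agamma (73.5 kb, 3R), which encodes a subunit of AMP-activated protein kinase.

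The pathway around the 8 genes was followed in 5 further lists, together 61 genes of which 23 had a reproducible peak in the gene or within 1 kb. These lists were chosen with earlier results of these data known, and their counts are read against 20% of all protein-coding genes. For synthesis, uptake and breakdown of the hormone, 0 of 14 genes had a peak (exact 95% interval 0 to 23.2%), and spo, spok, sro, phm, sad and Cyp18a1 lacked even a pooled candidate. The first 5 encode enzymes of ecdysone synthesis and Cyp18a1 one that inactivates the hormone. Of these 14 genes, 8 are under 5 kb, and nvd, spok, EcI and mld are over 20 kb.

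Among other ecdysone response genes, 10 of 22 had a peak (45.5%, 24.4 to 67.8%), against 20% of all genes, with 15 peaks in all. Sox14, a factor gene induced at metamorphosis, had the strongest of them at a signal of 736 (rank 15), well above any of the 8 genes. Eip63F-1, a calcium-binding protein gene, followed at 429 (rank 76), then the cell death gene hid at 241 (rank 264) and ImpL2, which encodes an insulin-binding protein, at 154 (rank 654), where the nearest start is that of CG46460. No candidate was found at ImpE2, ImpL1, rpr, Dronc or Sgs3.

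All 6 genes listed as cofactors of the receptor had a peak (exact 95% interval 54.1 to 100%), against 20% of all genes, 18 peaks in all. None of the 6 is under 5 kb, and tai and Smr are over 50 kb. The coactivator gene tai had 6 and the strongest of them, at 289 (rank 171). The corepressor gene Smr had 5, led by one at 171 (rank 537), and the acetyltransferase gene nej had 4, led by one at 130 (rank 906). E(bx), which encodes a subunit of the chromatin remodeler NURF, followed at 105 (rank 1315). The other cofactor genes were trr (rank 2189) and rig (rank 2231), named after their values were seen. The start nearest to the strongest peak was that of another gene for 4 of the 6, namely lncRNA:CR43963 for Smr, lncRNA:CR42657 for nej, Coa8 for trr and CG11110 for rig.

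Of the other nuclear receptor genes, 4 of 14 had a peak (28.6%, 8.39 to 58.1%), against 20% of all genes. These were ERR at 288 (rank 175), where the nearest start is that of Atg18a, Hr96 at 214 (rank 361), Hnf4 at 95.1 (rank 1561) and Hr51 at 72.4 (rank 2463), past the 3′ end of the gene and nearest to the start of unc-5. No candidate was found at tll, kni or eg. With the 7 nuclear receptors among the 8 genes, of which 4 had a peak, 8 of 21 members of the family did. Eip74EF was compared with 7 other ETS factor genes, of which 3 had a peak, namely aop (rank 1690), Ets96B (rank 1777) and pnt (rank 2297), all weaker than its best at rank 652. The start nearest to the Ets96B peak was that of CG5805, and to the pnt peak that of lncRNA:CR46090.

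Length again ran alongside the counts. Over the 61 genes, a peak was found at 6 of 7 over 50 kb, 5 of 13 of 20 to 50 kb, 9 of 16 of 5 to 20 kb and 3 of 25 under 5 kb. The shares among all protein-coding genes of these classes were 38.3%, 33.2%, 30.6% and 16.1%. The lists hold few genes in each class, and their part in the differences between lists was not tested.

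Base composition was the last feature compared. The 101 bases around the summit averaged 42.8 ± 10.5% G and C over the 21 peaks (SD) and 38.7 ± 10.6% over the list. Values ran from 24.8% at Eip75B peak 1 to 59.4% at Eip74EF peak 2, and the other Eip74EF windows were at 57.4% and 58.4%. The average was 38.7% over the 245 peaks at other genes over 50 kb and 39.7% over all peaks away from promoters. The SD is the spread of single peaks, and whether the averages differ was not tested.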

How the data were processed

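Region lists were made by the authors on dm6 with a control alignment, 1 for each replicate and 1 for the pooled data, and the reproducible list came from these by irreproducible discovery rate (IDR), per the file headers of the notes deposited with them. Which aligner, caller and threshold they used is not given in the sources used here. The unit is the deposited score that the authors' peak caller wrote as signal value, on a scale of its own in each list. Each candidate list held 30000 regions, the reproducible list was the strongest 2464 of the pooled one, and read depth is unknown. The pooled candidate list is labelled as peaks and background used as input for IDR. Regions on build dm3 were not used.

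Summits were placed with Ensembl release 115 (BDGP 6.54), leaving out transposable elements, and written 1-based. Promoter meant within 500 bp of a transcript start, shared within 150 bp, and motif windows 50 bp on either side of a summit. Genes, gene lists and motifs were chosen with earlier results of these data known. All 8 genes are named with every peak. Further lists are represented by up to 4 genes with the highest ranked peaks and those without a candidate. The genes most like Eip75B were those nearest in number of peaks, then in length. Alternatives changed the peak limit, gene window, promoter distance, summit distance, motif window and replicate. Intervals are exact binomial (Clopper-Pearson, 95%), and whether the replicates came from separate collections is not stated. The placement was tested on simulated data. The software was pandas 2.3.3, SciPy 1.17.1 and NumPy 2.4.6 under Python 3.11.15, with matplotlib 3.10.9 for plots.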

Additional observations from a re-analysis of the deposited data

How the results depend on the processing

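The 5 genes with a peak kept one under every limit and gene window tried, and replicate 1 alone added usp, for 6 genes, against 5 from replicate 2 alone. The count of 21 peaks was 9 when peaks under the median signal of the list were left out, and otherwise ran from 14, by nearest start only, to 24, within 5 kb. Counting summits under 1 kb apart once, an alternative added after seeing the data, gave 18. Promoter peaks numbered 1 within 250 bp, against 2 within 500 bp.

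Counts of CACGTG, of AGGTCA and of GAGAG moved with the window, while CAAGGTCA was in 1 and TATCGATA in 0 of the 21 peaks in each window tried. CACGTG was in 1 of 21 windows, in 2 within 100 bp of the summit, 0 within 25 bp and 3 over whole regions. AGGTCA was in 2, then 4, 1 and 5 by the same steps, and GAGAG in 5, then 11, 3 and 14. Among peaks above the median signal the response list had 6 genes with a peak (10 in the full list), the cofactors 3 (6), other nuclear receptors 2 (4) and other ETS factors 0 (3). These counts have no direction that could turn. Of single genes, EcR had 2 peaks, Eip75B 1, ftz-f1 3 and Hr4 1 above the median signal, so that Eip75B no longer had the most. Eip74EF had 6 regions in replicate 2 alone and 5 peaks within 5 kb. Depth was unknown, so regions under the authors' limit cannot be called absent.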
